A study of Mus musculus with 15 samples.

Results

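This account follows 10 genes of the TGF-beta and Hippo-YAP pathways through 15 RNA sequencing libraries of mouse primary hepatocytes. The genes were taken by name: the YAP target genes Ctgf, Cyr61, Ankrd1 and Amotl2, the ligands Tgfb1 and Tgfb2, the receptors Tgfbr1 and Tgfbr2, the transducer Smad3 and the corepressor Skil. All 10 were found among the 24347 entries of the table and all 10 were among the 12703 genes tested. Wild-type hepatocytes, labelled as such, were isolated by digestion of the liver and kept with or without 10 ng/mL recombinant interleukin-13 (IL-13), a type 2 cytokine, for 2 h. A stimulus of 100 µM cAMP or 100 nM glucagon, or vehicle, followed for 3 h, and IL-13 was kept in the medium of the cells that had received it. The groups were vehicle, cAMP, cAMP+IL-13, glucagon and glucagon+IL-13, with 3 libraries each. IL-13 was never given alone, so whether its effects need a stimulus cannot be told here. Neither mice nor cultures are named per library in the labels. The p-values therefore rest on the spread between libraries, which may be technical.

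TGF-beta ligands are secreted in a latent form, bind the type II receptor Tgfbr2 on the cell surface and recruit the type I receptor Tgfbr1, which phosphorylates Smad2 and Smad3. The phosphorylated SMADs join Smad4 in the nucleus, where Skil (SnoN) holds their target genes in check and Smad7 feeds back on the receptor. YAP and its relative TAZ (gene Wwtr1) are coactivators that the Hippo kinases Lats1 and Lats2 keep out of the nucleus. In the nucleus they bind TEAD factors and switch on genes such as Ctgf, Cyr61, Ankrd1 and Amotl2. Cyclic AMP acts through protein kinase A, which is known to restrain YAP in several cell types. In liver, TGF-beta and Ctgf are best known from fibrosis, and YAP from organ size and regeneration.

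Promoter sequence was available in the RefSeq table (GRCm38.p6) for 8 of the 10 genes, Ctgf and Skil being the others. The TEAD core GGAATG, searched on both strands over the 250 bases before the RefSeq start, was found in 3 of these 8, namely Cyr61, Ankrd1 and Amotl2. In the same window it was present in 12.6% of 32851 promoters. The 30 bases around each copy are shown on the gene's strand, because these are the letters that the YAP target promoters had in common, with the TEAD core in capitals in either orientation.
Cyr61 at -103: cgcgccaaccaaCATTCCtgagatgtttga
Ankrd1 at -210: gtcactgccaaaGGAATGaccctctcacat
Ankrd1 at -123: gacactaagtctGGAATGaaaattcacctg
Amotl2 at -65: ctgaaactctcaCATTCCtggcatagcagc
Positions count from the RefSeq start and refer to the motif's first base on the gene's strand. These stretches lie at chr3:145650071-145650100 on the minus strand (Cyr61), chr19:36120037-36120066 and chr19:36119950-36119979 on the minus strand (Ankrd1) and chr9:102717727-102717756 on the plus strand (Amotl2). The windows of Ankrd1 and Amotl2, and that of Tgfb2 below, overlap annotated exons over 250, 136 and 167 of their 250 bases. Only short stretches of them are therefore printed. The RefSeq starts of Ankrd1 and Amotl2 lie 255 and 1132 bases inside the GENCODE gene, so these windows are not upstream of it.

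The cAMP response element (CRE) core TGACG, also searched on both strands, was found in Cyr61 and Tgfb2, against 17.8% of all promoters. These sites are shown, with the core in capitals, because both genes were lower with cAMP, although Ankrd1 and Amotl2 were lower too and had none.
Cyr61 at -58: ccgacagagctaCGTCActgcaacacgcg
Tgfb2 at -72: gtaatcctagcgCGTCActttgttgaagg
They lie at chr3:145650027-145650055 and chr1:186706045-186706073, both on the minus strand. The palindromic CRE (tgacgtca), which contains the core on both strands, was in none of the 8 windows and in 1.55% of all promoters. The SMAD box CAGAC, on either strand, was found in Ankrd1, Tgfb2 and Tgfbr2 and in 42.2% of all promoters, and a copy in Ankrd1 shares its last base with the TEAD core at -123. The windows of Tgfb1, Tgfbr1 and Smad3 held none of these motifs. A match is a description of the letters and not a bound site.

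The whole upstream window of Cyr61, which overlaps no annotated exon, shows the spacing of its TEAD and CRE cores (chr3:145649986-145650235, minus strand, cores in capitals).
Cyr61 upstream window: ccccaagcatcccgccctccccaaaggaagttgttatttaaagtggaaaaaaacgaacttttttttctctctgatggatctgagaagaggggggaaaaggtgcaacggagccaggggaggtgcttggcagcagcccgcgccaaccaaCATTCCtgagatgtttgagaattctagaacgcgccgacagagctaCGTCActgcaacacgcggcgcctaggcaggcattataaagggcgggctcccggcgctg

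Per unit of transcript length 3 of the 4 YAP targets, Cyr61, Ctgf and Ankrd1, were the most abundant of the 10 genes. In vehicle the mean FPKM (fragments per kilobase of transcript, scaled to library depth) was 571 ± 22.7 for Cyr61, 295 ± 3.94 for Ctgf and 74.9 ± 2.85 for Ankrd1 (SD, n = 3). Amotl2 stood at 17.1 ± 1.39, close to the type II receptor Tgfbr2 at 20.2 ± 2.17 FPKM. The type I receptor Tgfbr1 was lower at 6.24 ± 1.22 FPKM. Of the ligands, Tgfb2 stood at 12.0 ± 0.783 and Tgfb1 at only 3.18 ± 0.398 FPKM. Smad3 (11.4 ± 1.89) and Skil (10.3 ± 2.18) lay near Tgfb2, and the vehicle ranges of these 3 overlapped.

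The libraries held an estimated 15567578 to 24245894 reads, recovered from the deposited values. All 7 hepatocyte markers measured were present, with a summed FPKM between 19248 and 23247 per library. Other liver cells left smaller traces. The summed FPKM was 5.02 to 7.72 over 10 stellate cell markers, of which Lrat, Colec11 and Hand2 were too low to test, 15.7 to 22.8 over 9 endothelial markers and 191 to 226 over 10 Kupffer cell markers. The cholangiocyte sum of 569 to 655 over 7 markers came almost wholly from Spp1 (557 to 638 FPKM), and the mesothelial sum did not exceed 0.0649 over 4 markers. In bulk RNA, fewer cells of a type and less RNA per cell cannot be told apart. Vehicle library a stood apart from vehicle b and c. Its log2 difference from them fell with log2 transcript length (r = -0.53 against b and -0.63 against c, compared with -0.22 for b against c, across 9143 genes, which are not independent). Smad3, Amotl2, Tgfbr2, Skil and Tgfbr1 were 0.47, 0.37, 0.32, 0.32 and 0.22 log2 units below the mean of b and c in that library. Results of these genes against vehicle, the counts of the 10 genes and the list counts that change most are therefore also given without it. The role of this difference in the results was not tested further.

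Levels below are scaled reads, the authors' read estimates after 1 factor per library, and differences are log2 fold changes from limma with their standard error (SE). A gene is said to have risen or fallen where the Benjamini-Hochberg adjusted p over all tested genes was under 0.05. The cAMP and glucagon comparisons share the vehicle libraries and are not independent of each other. The 10 genes and the lists below were chosen with earlier results of these data known, so their counts are not independent of the data. With cAMP, 4 of the 10 genes rose and 5 fell, where 13.0% of all tested genes rose and 12.8% fell. With glucagon, 2 rose and 5 fell, against 9.35% and 9.53% of all genes. With every column rescaled to the same total, the split over all genes moved from 1648 higher and 1624 lower to 1265 and 2148 with cAMP, and from 1188 and 1211 to 956 and 1502 with glucagon. Under that scaling 3 of the 10 genes rose and 5 fell with cAMP, the rise of Tgfbr2 being lost (0.17, adjusted p = 0.105), and the counts with glucagon stayed at 2 and 5. Without vehicle a, 1806 of all tested genes rose and 1862 fell with cAMP, and 1497 rose and 1601 fell with glucagon. Of the 10 genes, 3 then rose and 6 fell with cAMP, and 2 rose and 5 fell with glucagon.

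**Figure D1:**
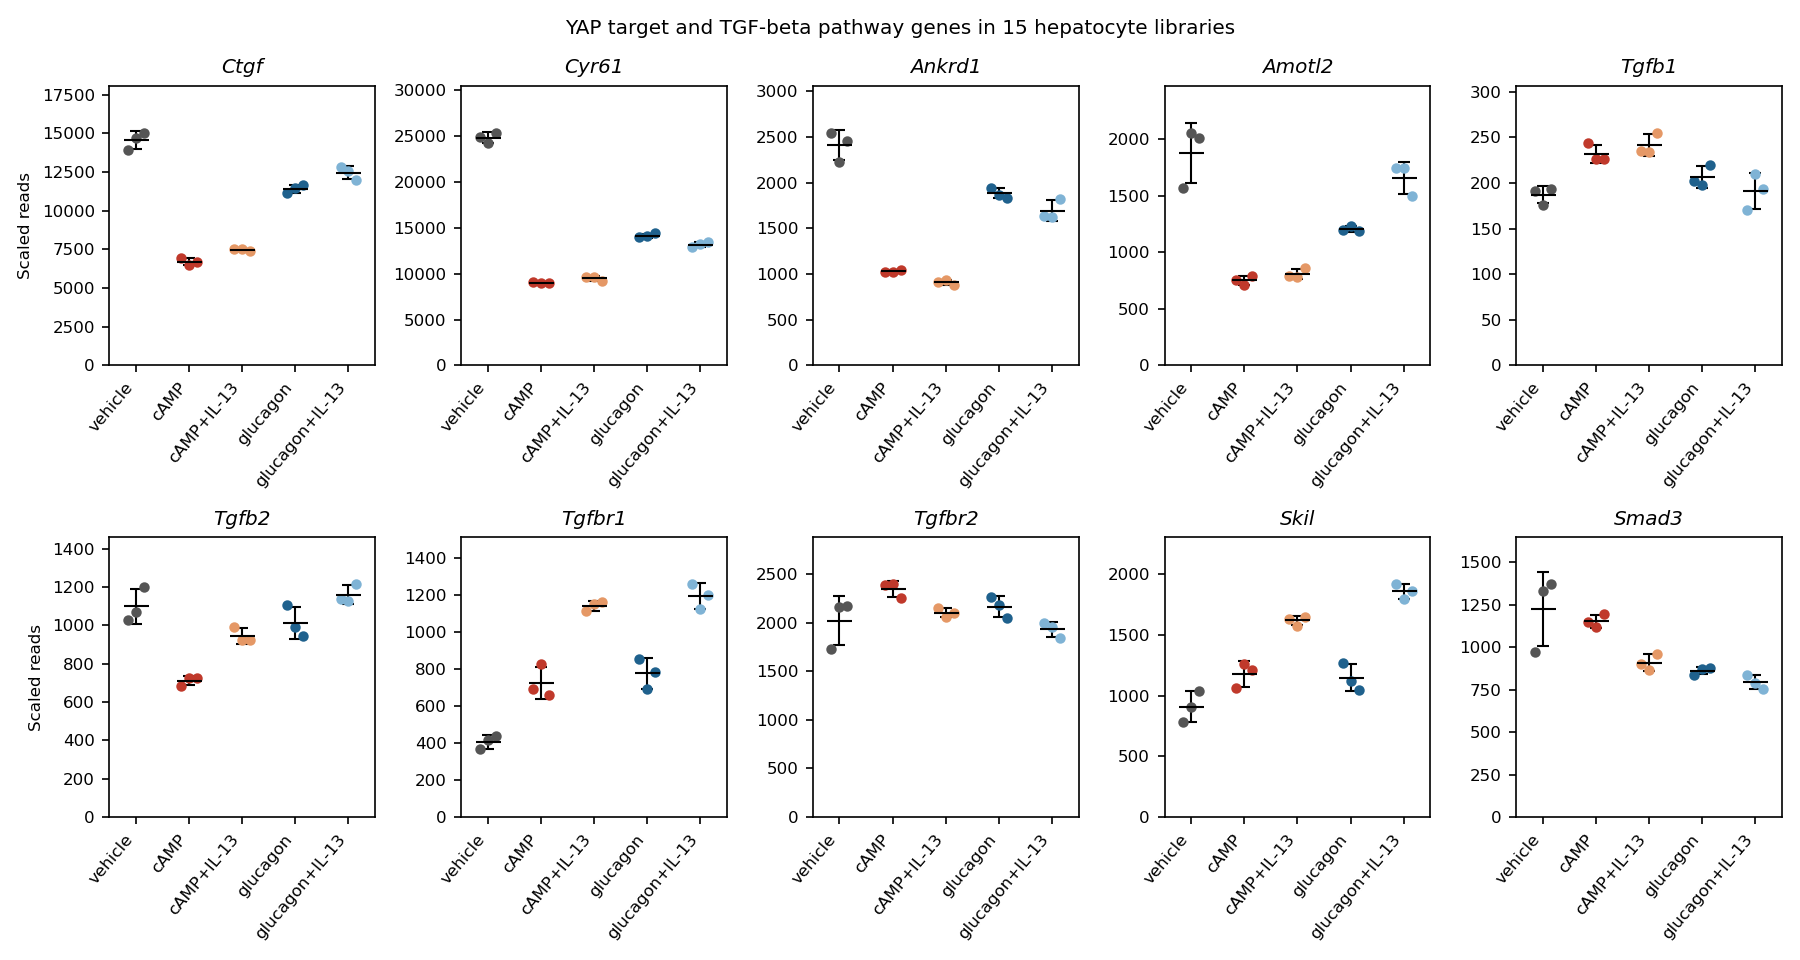
Scaled reads (linear axes from 0) of the 10 genes in each of the 15 libraries, by group. Points are libraries, bars the mean and SD of 3 libraries. Ctgf, Cyr61, Ankrd1 and Amotl2 are lowest in the 2 cAMP groups, whereas Tgfbr1 and Skil are highest in the 2 groups with IL-13.

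The 4 YAP target genes fell with both stimuli, and fell further with cAMP. Cyr61 encodes a secreted matricellular protein of the CCN family that binds integrins (current symbol Ccn1, chromosome 3, 145646976 to 145649981, mm10). It was read at 24896, 24264 and 25401 scaled reads in vehicle a, b and c, at 9103, 9044 and 8942 with cAMP and at 13986, 14112 and 14395 with glucagon. The 3 groups were far apart, with no overlap. The log2 fold change was -1.46 (SE 0.04, adjusted p = 2.16e-15) with cAMP and -0.81 (SE 0.04, adjusted p = 1.72e-11) with glucagon, which left 0.363 and 0.570 of the vehicle level.

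Ctgf, the other abundant CCN protein and a marker of fibrosis (current symbol Ccn2, chromosome 10, 24595442 to 24598683), behaved likewise. Its libraries read 13945, 14683 and 15051 in vehicle, 6946, 6495 and 6681 with cAMP and 11127, 11447 and 11645 with glucagon. Again the glucagon libraries lay between the other groups without overlap. Ctgf fell by 1.12 on the log2 scale with cAMP (SE 0.04, adjusted p = 7.78e-13) and by 0.35 with glucagon (adjusted p = 7.63e-06). The other 4 CCN genes did not reach the level for testing.

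Ankrd1, an ankyrin repeat protein of muscle sarcomeres and the nucleus and a standard YAP readout (chromosome 19, 36111961 to 36120099), was read at 2548, 2230 and 2451 in vehicle. It stood at 1024, 1023 and 1046 with cAMP and at 1942, 1869 and 1835 with glucagon. The changes were -1.22 (SE 0.06, adjusted p = 2.72e-11) and -0.35 (SE 0.06, adjusted p = 0.000334). Amotl2 encodes a junctional scaffold that binds YAP and holds it in the cytoplasm, and so is both a target and an inhibitor of YAP (chromosome 9, 102716672 to 102733418). Its vehicle libraries read 1573, 2060 and 2009, library a being the lowest. With cAMP the values were 756, 712 and 789, and with glucagon 1199, 1236 and 1189, all below every vehicle library. Amotl2 fell by 1.31 with cAMP (SE 0.09, adjusted p = 1.78e-09) and by 0.63 with glucagon (adjusted p = 3.72e-05). Without vehicle a these falls were 1.44 and 0.75.
The cholangiocyte markers also moved with cAMP. Krt19, Sox9 and Spp1, the 3 of 7 that could be tested, fell by 0.97, 0.26 and 0.16, and the sum over the list was 621 to 647 FPKM in vehicle, 571 to 594 with cAMP and 569 to 582 with glucagon. Their part in the fall of the YAP targets was not tested.

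Set directly against each other at the doses used, glucagon left all 4 YAP targets higher than cAMP did. The difference was 0.87 for Ankrd1 (SE 0.06, adjusted p = 4.22e-08), 0.77 for Ctgf (adjusted p = 2.22e-09), 0.68 for Amotl2 (adjusted p = 8.57e-05) and 0.65 for Cyr61 (adjusted p = 2.61e-09). Of the 10 genes, 5 were higher and 1 lower with glucagon than with cAMP, where 1.76% of all tested genes were higher and 2.51% lower. The fifth higher gene was Tgfb2, and Smad3 was the lower one. The doses of 100 µM cAMP and 100 nM glucagon are not matched in effect, so the comparison is of these treatments only.

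**Figure D2:**
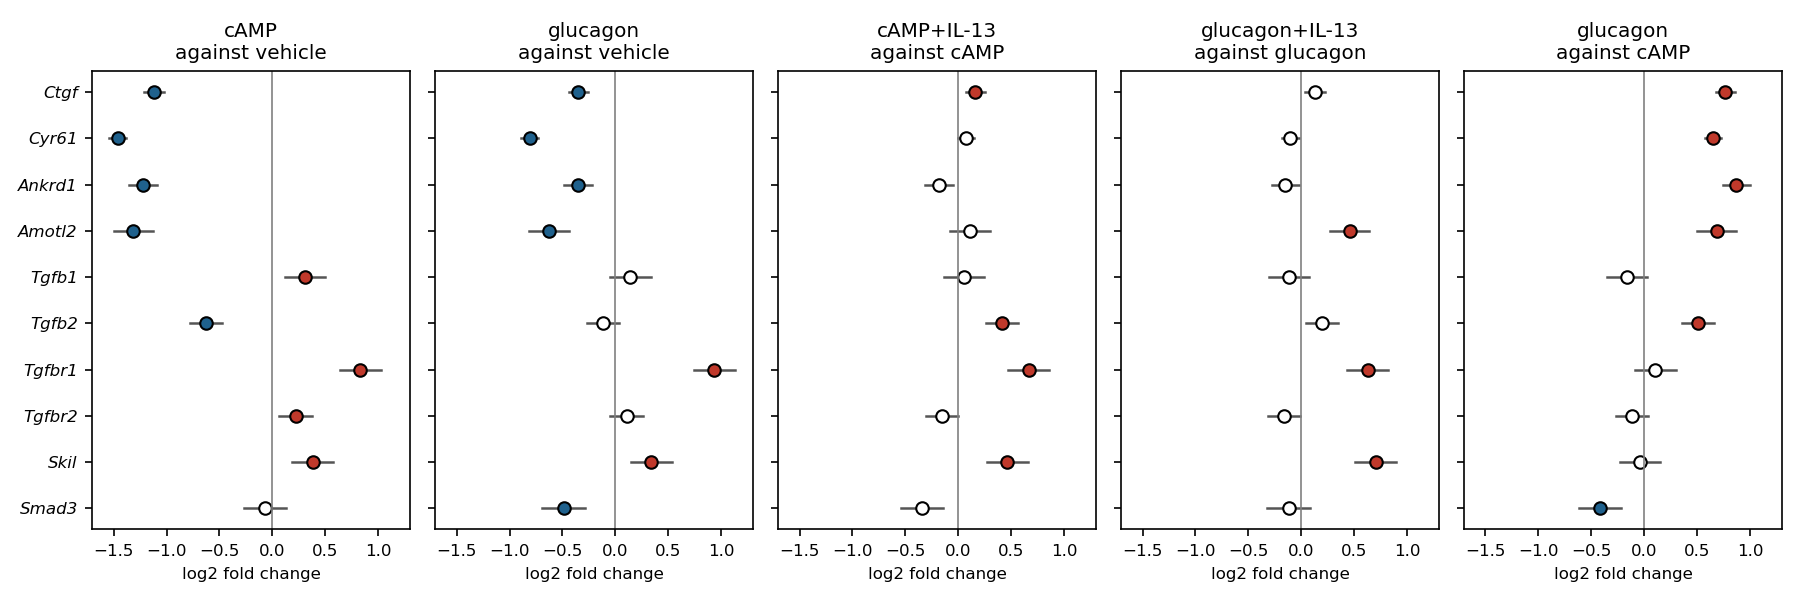
Log2 fold changes of the 10 genes in 5 comparisons (x axis, log2 scale). Points are limma estimates, lines their 95% confidence intervals, red points rose, blue points fell and open points did not pass. The 4 YAP targets fall between 1.12 and 1.46 with cAMP, less with glucagon, and Tgfbr1 is to the right of 0 in each of the first 4 panels.

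The wider list of YAP target genes had 22 names, of which 20 were tested. With cAMP 12 of them fell and 2 rose, with a median log2 fold change of -0.64 beside 0.01 over all genes. With glucagon 10 fell and 2 rose, with a median of -0.30 beside 0.02. Over all tested genes 12.8% fell and 13.0% rose with cAMP, and 9.53% fell and 9.35% rose with glucagon. Leaving aside the 5 genes already described or named below (Ctgf, Cyr61, Ankrd1, Amotl2 and Tgfb2), 7 of the other 15 fell and 2 rose with cAMP, and 6 fell and 2 rose with glucagon. The growth arrest gene Gadd45a fell alike with cAMP (-1.62) and glucagon (-1.60). F3, the tissue factor that starts coagulation, fell by 1.40 with cAMP and by 0.52 with glucagon, and Fjx1, a secreted relative of Drosophila four-jointed, by 1.61 and 0.45. The 2 listed targets that rose, Lats2 (0.43 and 0.49) and Ptpn14 (0.56 and 0.58), are themselves known to restrain YAP, Lats2 as the kinase and Ptpn14 as a binding phosphatase.
Without vehicle a, 12 listed targets fell with cAMP and 12 with glucagon, and without cAMP library 2, 10 fell with cAMP.

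**Figure D3:**
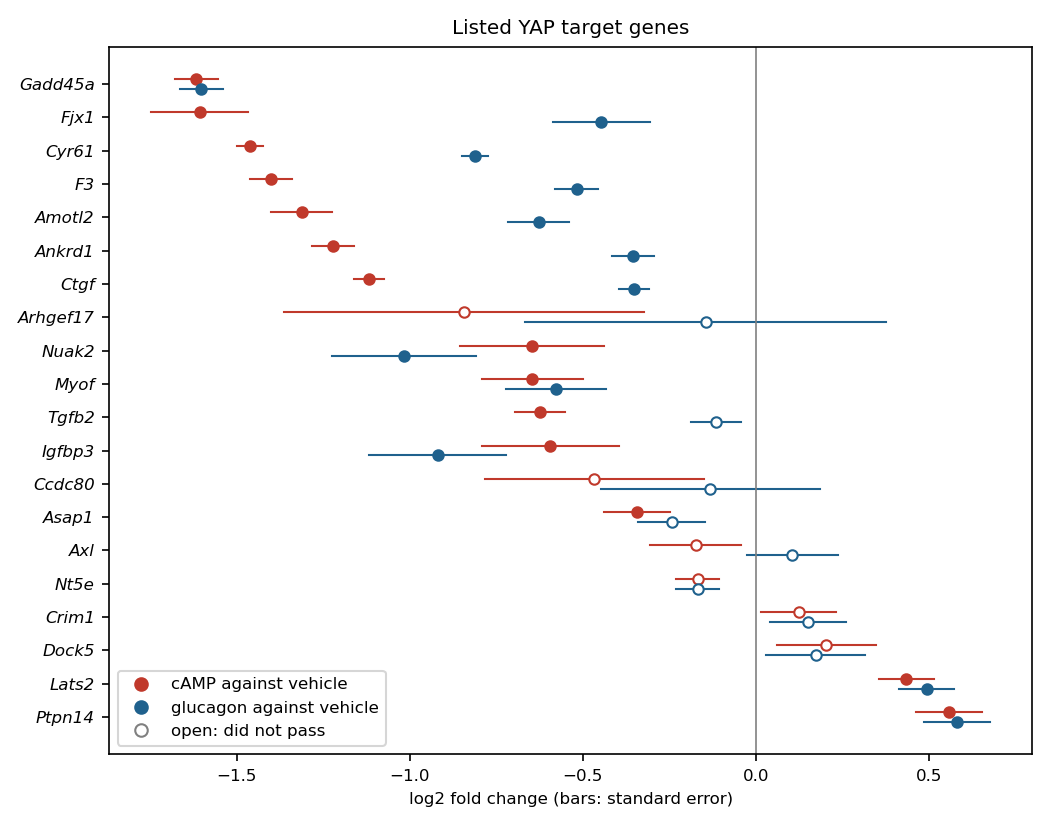
Log2 fold changes (x axis) of the 20 tested YAP target genes with cAMP (red) and glucagon (blue) against the same vehicle libraries. Bars are standard errors, and open points did not pass the threshold. With cAMP 12 genes fell and with glucagon 10, and Lats2 and Ptpn14 rose with both.

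The RNA of YAP itself did not pass the threshold in the main fit. Yap1 was read at 1839, 2113 and 2138 in vehicle, at 1853, 1928 and 1816 with cAMP and at 1833, 1924 and 1781 with glucagon. Both stimulated groups overlapped vehicle only through vehicle a, while vehicle b and c lay above every cAMP and glucagon library. With all vehicle libraries the differences of Yap1 were -0.12 (adjusted p = 0.16) and -0.13 (adjusted p = 0.131). Wwtr1, which encodes TAZ, did fall, by 0.50 with cAMP (adjusted p = 1.16e-05) and by 0.45 with glucagon (adjusted p = 5.33e-05). Tead1 did not pass (0.0031 and 0.04). Of 30 tested Hippo core genes and YAP partners, 4 rose and 7 fell with each stimulus, with medians of 0.0042 and 0.03, where 13.0% of all genes rose and 12.8% fell with cAMP and 9.35% and 9.53% with glucagon. Without vehicle a 3 rose and 11 fell with cAMP and 2 rose and 11 fell with glucagon, with medians of -0.16 and -0.11. In the main fit, 4 of the 29 listed genes outside the genes followed here rose and 6 fell with each stimulus. The membrane protein Frmd6, which acts upstream of the Hippo kinases, fell by 1.74 with cAMP and by 1.73 with glucagon. The LIM protein Ajuba, which binds and inhibits LATS kinases, fell by 1.44 and 0.68.

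Genes of the actin cytoskeleton and its factor SRF, which share many inputs with YAP, made up a list of 19. With cAMP 11 fell and 1 rose (median -0.32), and with glucagon 5 fell and 1 rose (median -0.11), or 7 and 2 without vehicle a. In the main fit 12.8% of all genes fell and 13.0% rose with cAMP, and 9.53% and 9.35% with glucagon. Zyxin (Zyx), a focal adhesion protein, fell by 1.18 and 0.83, the LIM coactivator Fhl2 by 1.16 and 0.52, and Actb, beta-actin, by 0.60 and 0.32. Between the stimuli, 10 of the 19 were higher with glucagon than with cAMP and none was lower, against 1.76% and 2.51% of all genes, and 7 were higher without cAMP library 2.

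The ligands moved differently from each other with cAMP. Tgfb2 (chromosome 1, 186622792 to 186705989), itself on the YAP target list, was read at 1027, 1067 and 1202 in vehicle and at 686, 725 and 724 with cAMP. It fell by 0.62 (SE 0.07, adjusted p = 2.18e-06). With glucagon its libraries read 1107, 991 and 944 and overlapped those of vehicle, and the change of -0.12 did not pass (95% interval -0.27 to 0.03, adjusted p = 0.3). The direct difference between the stimuli was 0.51 (adjusted p = 0.00021).

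Tgfb1 (chromosome 7, 25687002 to 25705077), the main profibrotic ligand of liver, was read at 191, 176 and 194 in vehicle and at 243, 226 and 226 with cAMP. The rise of 0.31 (SE 0.09, adjusted p = 0.0155) was lost without vehicle b (adjusted p = 0.0614), without cAMP library 1 (0.0692) and in the FPKM table (0.106). With glucagon the values of 202, 198 and 220 gave 0.14, which did not pass. Tgfb1 is also made by Kupffer and endothelial cells. The summed FPKM of Kupffer markers was 204 to 211 in vehicle and 212 to 226 with cAMP, and that of endothelial markers 15.7 to 19.9 and 22.5 to 22.8. Of 10 Kupffer markers 1 rose and 0 fell with cAMP, and of 9 endothelial markers 3 rose and 2 fell. The part of these cells in the rise was not tested. Among 13 tested ligand, latency and activation genes, 4 rose and 1 fell with cAMP, and 1 rose and 1 fell with glucagon (medians 0.21 and 0.14). Without vehicle a 4 rose and 3 fell with cAMP. Of the 11 outside the 10 genes, 3 rose and none fell with cAMP, and 1 rose and 1 fell with glucagon. The shares over all tested genes were 13.0% higher and 12.8% lower with cAMP, and 9.35% and 9.53% with glucagon. Lrrc32 (GARP), which docks latent TGF-beta on the cell surface, rose by 1.38 with cAMP, from 145, 203 and 184 to 485, 424 and 470 scaled reads. It was 1.14 lower with glucagon than with cAMP (adjusted p = 1.72e-06).

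Of the receptors, the type I chain rose with either stimulus and then rose again with IL-13. Tgfbr1 (chromosome 4, 47353222 to 47414931) was read at 365, 413 and 438 in vehicle, at 689, 824 and 657 with cAMP and at 852, 689 and 784 with glucagon. The stimulated libraries all lay above vehicle and overlapped each other. The rises were 0.83 (SE 0.09, adjusted p = 1.45e-06) and 0.93 (SE 0.09, adjusted p = 4.89e-07), and the difference between the stimuli was 0.10 (95% interval -0.09 to 0.30). Without vehicle a they were 0.76 and 0.86. Tgfbr2 (chromosome 9, 116084293 to 116175360) read 1735, 2165 and 2170 in vehicle and 2386, 2399 and 2254 with cAMP. Its rise of 0.22 (adjusted p = 0.0331) was 0.11 without vehicle a (adjusted p = 0.132), and also did not pass without cAMP library 1 (adjusted p = 0.0984) or cAMP library 2 (0.0901). With glucagon it stood at 2269, 2182 and 2050, overlapping vehicle, and the difference of 0.11 became -0.0018 without vehicle a. Of 8 tested receptors and co-receptors, 4 rose with cAMP and 1 with glucagon, and none fell, where 13.0% and 9.35% of all genes rose. The 4 with cAMP became 2 without vehicle a, 2 without cAMP library 2 and 2 with equal column totals. In the main fit, 2 of the 6 receptors and co-receptors besides Tgfbr1 and Tgfbr2 rose with cAMP and none with glucagon.

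Downstream of the receptors, the corepressor gene rose while Smad3 was lower with glucagon. Skil (chromosome 3, 31095058 to 31122577) read 780, 909 and 1039 in vehicle, 1061, 1257 and 1215 with cAMP and 1268, 1122 and 1048 with glucagon, so that the lowest stimulated libraries lay just above the highest vehicle library. It rose by 0.38 (adjusted p = 0.00443) and 0.34 (adjusted p = 0.0128). Without vehicle a the rises were 0.27 and 0.23, and the call with glucagon was lost without glucagon library 1 (adjusted p = 0.0775) and in the FPKM table (0.0703).

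Smad3 (chromosome 9, 63646767 to 63757994) read 973, 1329 and 1372 in vehicle, with library a far below the others. Values of 1151, 1117 and 1193 with cAMP fell between them, and the change of -0.07 did not pass (adjusted p = 0.647). Without vehicle a it was -0.23 (adjusted p = 0.00917). With glucagon all libraries (839, 869 and 878) were below vehicle and below cAMP. Smad3 fell by 0.49 against vehicle (SE 0.10, adjusted p = 0.00105), by 0.65 without vehicle a, and was 0.42 lower than with cAMP (adjusted p = 0.0134). The last call was lost without cAMP library 1 (adjusted p = 0.054), cAMP library 3 (0.072) or glucagon library 1 (0.0648).

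Around these genes, 3 of 16 tested SMADs, corepressors and ubiquitin ligases rose and 3 fell with each stimulus, with medians of -0.01 and -0.0054. Without vehicle a 3 rose and 6 fell with cAMP and 2 rose and 5 fell with glucagon, with medians of -0.12 and -0.075. Of all tested genes, 13.0% rose and 12.8% fell with cAMP and 9.35% and 9.53% with glucagon in the main fit. In that fit, 2 of the 14 listed genes besides Smad3 and Skil rose with each stimulus, 3 fell with cAMP and 2 with glucagon. Nedd4l, a ubiquitin ligase that can degrade phosphorylated Smad2 and Smad3, went from 756, 829 and 904 scaled reads in vehicle to 2306, 2363 and 2396 with cAMP and 2186, 2224 and 2048 with glucagon, rises of 1.51 and 1.38. The corepressor Tgif1 fell by 0.72 and 0.85. Smad4 did not pass in any comparison, and Smad2 passed only with cAMP (-0.26, adjusted p = 0.0223). Among 24 tested TGF-beta target genes, 8 rose and 5 fell with cAMP and 7 rose and 7 fell with glucagon (medians 0.07 and 0.05). Of the 20 outside the 10 genes, 5 rose and 4 fell with cAMP and 5 rose and 6 fell with glucagon. The cell cycle inhibitor Cdkn2b fell by 1.83 and 1.37.

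IL-13 was then compared with the same stimulus alone. On top of cAMP, 4 of the 10 genes rose and none fell, where 2.52% of all tested genes rose and 1.38% fell. Smad3, just above the threshold, passed as lower in several alternatives given below. On top of glucagon 3 rose and none fell, where 3.50% rose and 2.23% fell. Tgfbr1 and Skil rose in both settings. With cAMP+IL-13 the 4 YAP targets stayed below every vehicle library. With glucagon+IL-13 Cyr61, Ctgf and Ankrd1 did too, while Amotl2 (1499 to 1745) overlapped vehicle only through library a (1573). Amotl2 stayed below vehicle b and c (2060 and 2009).

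With IL-13, Tgfbr1 reached the highest values of the series. It read 1111, 1148 and 1162 with cAMP+IL-13 and 1258, 1122 and 1199 with glucagon+IL-13, all above every library without IL-13. IL-13 added 0.66 on top of cAMP (SE 0.09, adjusted p = 0.000169) and 0.63 on top of glucagon (SE 0.09, adjusted p = 0.000284). The order of the group means was vehicle, cAMP, glucagon, cAMP+IL-13, glucagon+IL-13, and the only neighbours that did not overlap were vehicle and cAMP, and glucagon and cAMP+IL-13. Skil was also highest in the groups with IL-13, with 1632, 1576 and 1650 in cAMP+IL-13 and 1919, 1796 and 1863 in glucagon+IL-13, which did not overlap. It rose by 0.46 (adjusted p = 0.00507) and 0.70 (adjusted p = 7.39e-05). Tgfbr2 did not follow Tgfbr1. It read 2156, 2060 and 2100 with cAMP+IL-13 and 1997, 1959 and 1847 with glucagon+IL-13, and its differences of -0.16 and -0.16 did not pass (adjusted p = 0.378 and 0.241). On cAMP it passed with the compared groups alone (adjusted p = 0.0299), and on glucagon without vehicle a (0.0401) and with the replicate number as a block (0.0434).

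Tgfb2 rose by 0.41 when IL-13 was added to cAMP (SE 0.07, adjusted p = 0.00174). Its libraries read 993, 923 and 922, above cAMP alone and below every vehicle library. With glucagon+IL-13 it read 1136, 1126 and 1215, above glucagon alone, but the difference of 0.20 did not pass (adjusted p = 0.139). Tgfb1 showed no difference past the threshold with IL-13 (0.06 and -0.12, intervals -0.13 to 0.24 and -0.30 to 0.07). Smad3 was lower with cAMP+IL-13 (900, 864 and 961) than with any cAMP library, and its difference of -0.35 missed the threshold (adjusted p = 0.0514). It passed without any single vehicle library, for example without vehicle a (adjusted p = 0.000349), but not when any library of the 2 groups themselves was left out. It also passed with TMM (trimmed mean of M-values) scaling (adjusted p = 0.0466), with equal column totals (0.0407), with the replicate number as a block (0.00187) and with the compared groups alone (0.000512), where 4 of the 10 genes rose and 3 fell. On top of glucagon the difference was -0.12 (835, 792 and 756 scaled reads).

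Among the YAP targets, Amotl2 was the one that rose with IL-13 on top of glucagon. It read 1745, 1742 and 1499 with glucagon+IL-13, above all glucagon libraries, a rise of 0.46 (SE 0.09, adjusted p = 0.00343), whereas with cAMP+IL-13 (794, 780 and 862) the difference of 0.11 did not pass. Ctgf read 7516, 7526 and 7409 with cAMP+IL-13, and its rise of 0.16 was borderline (adjusted p = 0.0478). That call was lost without any single library of the cAMP and cAMP+IL-13 groups (adjusted p up to 0.183) and with equal column totals (0.1). On top of glucagon Ctgf read 12809, 12593 and 12009, a difference of 0.13 that did not pass (adjusted p = 0.0992) but did without vehicle a (adjusted p = 0.0336). Ankrd1 went the other way, with 909, 939 and 876 on cAMP and 1631, 1627 and 1825 on glucagon, differences of -0.18 and -0.15 that did not pass. Cyr61 stood at 9602, 9664 and 9207 with cAMP+IL-13 and at 12887, 13232 and 13414 with glucagon+IL-13, above cAMP alone and below glucagon alone, but neither difference passed (0.07 and -0.10).

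Whether IL-13 acted differently on glucagon than on cAMP was tested for every gene. None of the 10 passed, nor did any of the 12703 genes (0% in either direction, limma, smallest adjusted p = 0.322). Before adjustment, 608 genes or 4.79% fell under the threshold of 0.05. Among them were 3 of the 10, namely Cyr61 (-0.18, SE 0.05), Amotl2 (0.35, SE 0.12) and Tgfb2 (-0.21, SE 0.10). For Tgfbr1 the difference of effects was -0.04 (95% interval -0.31 to 0.24).

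In the listed pathways, feedback genes of TGF-beta signalling were among those that rose with IL-13. Smad7, the inhibitory SMAD, read 369, 348 and 402 with cAMP and 599, 653 and 589 with cAMP+IL-13, a rise of 0.72 (adjusted p = 0.000404). On glucagon it went from 476, 538 and 403 to 797, 801 and 722, also by 0.72. Pmepa1, a membrane protein that sequesters SMADs, rose by 0.69 on cAMP and by 1.15 on glucagon. Of 24 tested TGF-beta targets, 6 rose and 1 fell on cAMP and 8 rose and 2 fell on glucagon, with medians of 0.14 and 0.16 beside -0.00077 and -0.0020 over all genes. Of the 20 targets outside the genes followed here, 3 rose and 1 fell on cAMP and 6 rose and 2 fell on glucagon. Their medians were 0.11 and 0.16. Over all tested genes 2.52% rose and 1.38% fell on cAMP, and 3.50% rose and 2.23% fell on glucagon. Endoglin (Eng), a co-receptor of endothelial cells, fell by 0.49 and 0.32. Of 20 YAP targets, 3 rose and 1 fell on cAMP and 3 rose and 2 fell on glucagon. Among the 15 outside the genes followed here, 1 rose and 1 fell on cAMP and 2 rose and 2 fell on glucagon. Fjx1 showed the largest of these rises, from 38.7, 42.4 and 31.3 to 91.1, 124 and 95.4 on cAMP (1.44) and from 84.8, 86.6 and 81.6 to 213, 169 and 186 on glucagon (1.15).
Without vehicle a, 5 YAP targets rose and 2 fell on glucagon. In that fit 720 of all tested genes rose and 498 fell, against 445 and 283 in the main fit.

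**Figure D4:**
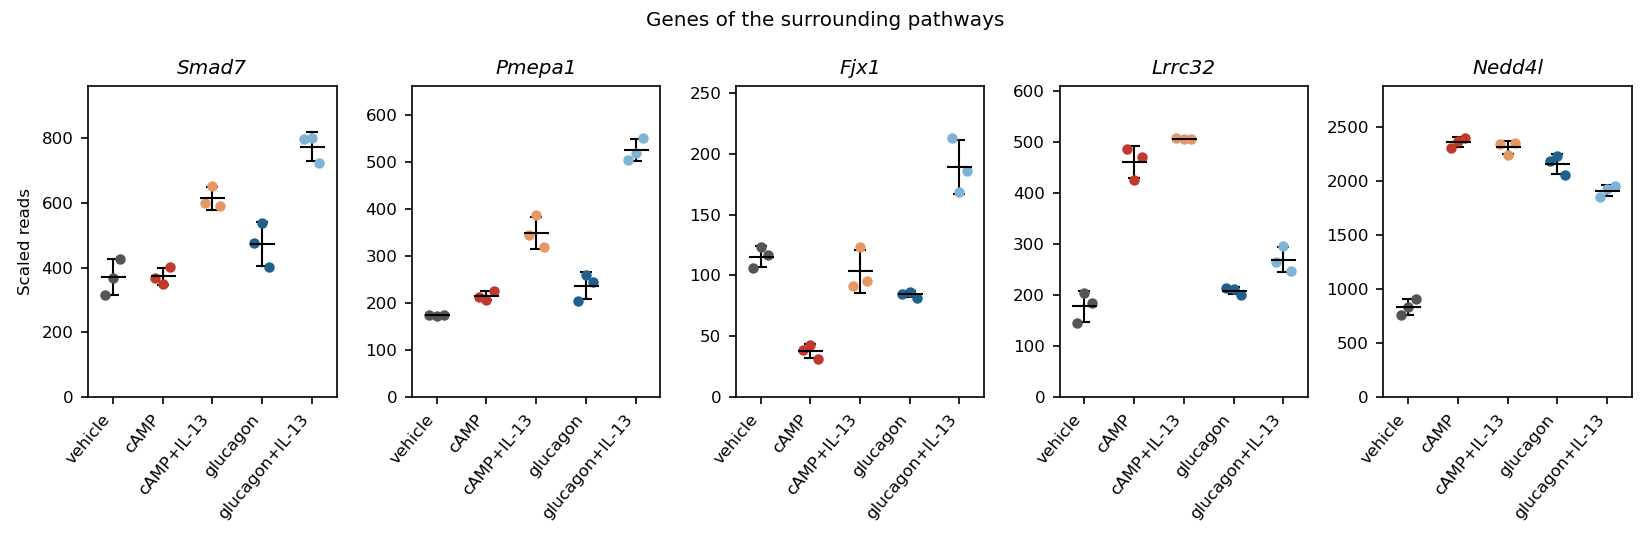
Scaled reads (linear axes from 0) of 5 listed genes outside the 10, in 15 libraries by group. Points are libraries, bars the mean and SD of 3. Smad7, Pmepa1 and Fjx1 are higher with IL-13 than with the same stimulus alone, Lrrc32 is highest in the 2 cAMP groups, and Nedd4l is higher in all stimulated groups than in vehicle.

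Some markers of other cells also moved with IL-13. The endothelial gene Pecam1 rose by 0.59 on cAMP and by 0.53 on glucagon, while another endothelial gene, Lyve1, fell by 0.54 and 0.64. Kdr, also endothelial, fell by 0.53 on glucagon. Of 9 endothelial markers, 1 rose and 2 fell on each stimulus. The shares over all tested genes were 2.52% higher and 1.38% lower on cAMP, and 3.50% and 2.23% on glucagon. The summed endothelial level was 22.5 to 22.8 FPKM with cAMP and 22.3 to 22.8 with cAMP+IL-13, and 19.8 to 22.2 and 20.3 to 21.2 on glucagon. Kupffer markers summed to 212 to 226 FPKM with cAMP and 191 to 199 with cAMP+IL-13, and to 216 to 217 and 199 to 206 on glucagon. Stellate markers summed to 6.48 to 7.40 with cAMP and 5.98 to 6.45 with cAMP+IL-13. On glucagon the stellate sums were 6.50 to 7.72 without IL-13 and 5.35 to 6.01 with it. The cholangiocyte sum, almost wholly Spp1, read 634 to 649 FPKM with cAMP+IL-13 and 571 to 594 with cAMP alone. On glucagon it read 636 to 655 with IL-13 and 569 to 582 without. Of 3 tested cholangiocyte markers, 0 passed on cAMP and only Sox9 passed on glucagon, with a rise of 0.47. Spp1 itself did not pass in either comparison. Of 7 tested stellate markers 0 passed on either stimulus, and of 10 Kupffer markers 1 fell on each. The part of these cells in the results was not tested.

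The genes most like 4 of the 10 across all 15 libraries were found by Pearson's correlation of log2 levels, as a description in which the shared group means weigh most. Ctgf was closest to Ajuba (r = 0.981), Dusp10, Fhl2 and Ier5 (0.959), of which Ajuba and Fhl2 stand in the lists above. Cyr61 was closest to Ifngr1 (0.992), Rnf19a, Plk2 and Mob3a (0.982). Tgfb2 was closest to Sirpa (0.958), Sdr42e1, Filip1l and Myadm (0.919). Skil was closest to Dock4 (0.972), Pecam1 (0.969), Rhoq and Egln3 (0.964). Among the 10 themselves, Ctgf and Amotl2 were the closest partners (r = 0.971), Skil was the closest to Tgfbr1 (0.939), and Tgfbr2 had no partner above 0.497.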

How the data were processed

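Per the labels and the study's methods, RNA of primary hepatocytes was made into TruSeq libraries and sequenced as single-end reads. The submitters' processing notes name TopHat 1.3.2, Cufflinks 2.0.2 and mm10. Annotation and strand setting are not given in the sources used here. Reads of overlapping genes on opposite strands may be mixed. Groups came from the sample titles. The description field of the cAMP samples reads as control, against their titles and treatment labels, which were followed. Strain labels differ from sample to sample in a running count and played no part. The vehicle columns are headed Control in the tables. They were taken as the vehicle group, which the methods call the control, without a match to single samples, and are called a, b and c. Every comparison with vehicle rests on this reading.

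The deposited signal holds the authors' read estimates multiplied by 1 factor per library, called scaled reads. Low values were multiples of a step of 0.797 to 1.25, and 98.3% to 98.9% of the values under 20 reads were whole within 0.1 of a read, as were 93.3% to 98.6% of all values, so read numbers are estimates. The deposited FPKM values, computed by the authors, served to compare levels between genes and as an alternative. Each quantity came as a full sheet and a selected sheet with identical values.

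The design named a count test as an alternative. The values are a scaled signal, so limma 3.58.1 in R 4.3.3 was used throughout, with group as the only term, a robust variance trend and log2(scaled reads + 1) of all 15 libraries, which understates changes of low genes. Genes needed 10 scaled reads in 3 libraries, and Benjamini-Hochberg adjustment ran over all 12703 tested genes in each of 6 comparisons. The fit was tested on simulated data. The 10 genes and the pathway and marker lists were chosen with earlier results of these data known. The text names all 10 genes, a fixed set of pathway genes (Yap1, Wwtr1, Tead1, Smad2, Smad4 and Smad7; a further gene of the set is not reported here), up to 4 further listed genes per list and comparison (largest change past the threshold, no overlap between groups, mean of at least 50), and the 4 genes most like Ctgf, Cyr61, Tgfb2 and Skil. Where a gene was named by this rule in 1 comparison, its values in others were added, among them those of Ptpn14, Fjx1, Actb and Junb. These additions, and Lats2 and Krt19, were chosen after the values were seen. Promoters came from the RefSeq table of GRCm38.p6, and gene positions from GENCODE on the same build. Alternatives were other pseudocounts, filters, scalings and variance settings, the FPKM table, fits on the compared groups alone, a replicate block and leaving out each library.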

Additional observations from a re-analysis of the deposited data

How the results depend on the processing

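Among the alternative values of the 10 genes, 1458 kept their direction and side of the threshold, 30 lost a call, 18 gained one and 14 changed sign, none of them a called value. With the fit on the compared groups alone, 2042 genes were called for cAMP against vehicle (3272 in the main analysis), 1294 for glucagon against vehicle (2399), 963 and 7 of the 10 for cAMP+IL-13 against cAMP (495 and 4), and 4 for the difference of the IL-13 effects (0). That difference gave 1 gene with the FPKM table and 1 with the replicate block. Whether replicate numbers pair the samples stayed unresolved. Deviations of same-numbered libraries correlated from -0.47 to 0.49 over 18 pairs, and those of other numbers from -0.55 to 0.54 over 36. Such overlapping ranges cannot exclude pairing, and the vehicle libraries, which have no matched number, were not included. With the replicate block 661, 1009 and 739 genes were called for IL-13 on cAMP, IL-13 on glucagon and glucagon against cAMP. The same 12 libraries without the block, an alternative chosen after seeing the data, gave 780, 1241 (5 of the 10 genes) and 918, and 4 for the difference. Leaving out 1 library gave 282 to 765 genes for IL-13 on cAMP, 430 to 1218 for IL-13 on glucagon (3 to 5 of the 10), 355 to 899 for glucagon against cAMP and 0 to 2 for the difference, the highest each time without vehicle a. Counts more than 1.5 times lower came for IL-13 on cAMP without cAMP library 1 or 3 or any cAMP+IL-13 library, for IL-13 on glucagon without glucagon library 1 or 3 or glucagon+IL-13 library 1 or 2, and for glucagon against cAMP without cAMP library 1 or 3. Vehicle is not part of these comparisons, so without vehicle a their fold changes stayed the same (-0.35 for Smad3 with IL-13 on cAMP). Only the shared variance estimate differed. Leaving out a compared library also left fewer libraries in its group. How far this accounts for the counts was not tested.

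Sign changes with 1 library left out concerned Smad3 with cAMP (-0.227 to 0.0207), Tgfbr2 with glucagon (-0.00180 to 0.160), Skil between the stimuli (-0.115 to 0.0218), and the difference of IL-13 effects for Ankrd1 (-0.0243 to 0.0583), Tgfbr1 (-0.135 to 0.0335, and 0.0344 with the FPKM table) and Tgfbr2 (-0.0468 to 0.0262, and 0.00531 with equal totals). The planned count tests on recovered reads were not run, because the deposited values are a scaled signal. Tgfb1, at 170 to 255 scaled reads per library, had the fewest reads of the 10 genes behind its values.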

Other observations

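Further genes of the listed pathways moved with the treatments. Junb, an AP-1 factor and early TGF-beta target, rose with cAMP (0.33, adjusted p = 0.000477 by limma) and fell with glucagon (-0.28, adjusted p = 0.00223), and IL-13 raised it on glucagon by 0.48 (adjusted p = 5.01e-05). The direct difference between the stimuli was -0.61 (adjusted p = 4.07e-06). Lmcd1, a LIM protein, fell by 1.65 with cAMP and by 0.73 with glucagon. Spsb1, an adaptor of a ubiquitin ligase, fell by 0.78 with glucagon and rose by 0.90 when IL-13 was added. The latent TGF-beta activator Thbs1 rose by 0.42 with IL-13 on glucagon (adjusted p = 0.0467), and the membrane protease Mmp14 rose by 0.33 with cAMP and by 0.37 with glucagon. The inhibitory Smad6 rose by 0.74 with cAMP. Among YAP targets and Hippo genes, Rassf1, which binds the Hippo kinases, fell by 0.65 with cAMP and by 0.72 with glucagon, and rose by 0.28 with IL-13 on glucagon, while the ectonucleotidase Nt5e (CD73) fell by 0.27 and 0.36 with IL-13 on cAMP and on glucagon.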
